A study of Mus musculus with 9 samples.

Results

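The genes described here encode the machinery that copies DNA in S phase. They are 41 genes chosen by symbol, and all 41 had at least 1 named probe among the 19057 named genes of the array. A gene was tested when a probe read above 7.5 (log2), a level just over the bulk of dim probes, on at least 4 of the 9 arrays. That left 39 of the 41 genes, out of 8543 genes tested in all. Orc1, the largest subunit of the origin recognition complex, and Ccne1, encoding cyclin E1, did not reach that level on 4 arrays; Ccne1 did on 1, and Orc1 on 1 array for each of its 2 probes.

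The arrays hold RNA of LSK cells, sorted bone marrow cells that lack lineage markers and carry Sca-1 and Kit, a population with stem cells and early progenitors. All mice were C57BL/6 males aged 12 weeks that had received 5-fluorouracil at 150 µg/g 6 days before the cells were sorted, and they were either wild type (5 arrays) or Socs2-/- (4 arrays). There was no group without the drug. The labels do not say whether an array is 1 mouse or a pool, so the p-values cover array-to-array spread alone, part of which may be technical. Each array was made from 250 pg of amplified RNA, and values are the deposited log2 values.

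DNA replication starts at origins, where the origin recognition complex, Cdc6 and Cdt1 load the MCM helicase during G1. Cdc45 and the GINS complex then join the helicase to make it active, a step that needs the Cdc7-Dbf4 kinase and Mcm10. Clamp, clamp loader, polymerases, a flap nuclease and a ligase copy the strands. Many of these genes are transcribed by E2F factors at the G1/S border. 5-Fluorouracil blocks thymidylate synthesis and kills cycling cells, after which surviving stem and progenitor cells enter division to refill the marrow. Socs2 encodes a suppressor of cytokine signalling through JAK and STAT proteins.

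The promoters are shown first because E2F binding sites are known from several genes of this kind. RefSeq promoter windows of the mouse build GRCm38.p6, from 250 bases before to 50 bases after the annotated start, were at hand for 33 of the 41 genes. The E2F motif was searched as TTTCGCGC and TTTGGCGC on both strands. It was found in 11 of the 33 genes (33.3%) and not in the other 22, against 0.93% of 26994 genes with a window of this length. CCAAT, the NF-Y motif, was found in 66.7% of the 33 genes against 41% of all, and GGGCGG, the SP1 motif, in 72.7% against 38.2%. A match, or the lack of one, describes these letters in these windows only. The 30 bases around each E2F match follow, 5′ to 3′ on the gene's own strand, with the matched letters in capitals; where matches on opposite strands overlap, the capitals cover both.
Mcm3 (chr1:20820263-20820292, minus strand): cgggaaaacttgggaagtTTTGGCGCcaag
Mcm5 (chr8:75109347-75109376, plus strand): gccaagaacTTTCGCGCCAAAacgtccagc
Mcm6, first (chr1:128359795-128359824, minus strand): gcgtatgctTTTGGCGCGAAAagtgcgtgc
Mcm6, second (chr1:128359734-128359763, minus strand): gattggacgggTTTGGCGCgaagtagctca
Mcm7 (chr5:138171849-138171878, minus strand): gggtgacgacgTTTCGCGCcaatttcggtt
Orc1 (chr4:108579416-108579445, plus strand): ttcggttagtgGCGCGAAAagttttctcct
Cdt1 (chr8:122568035-122568064, plus strand): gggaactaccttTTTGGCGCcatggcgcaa
Clspn (chr4:126556990-126557019, plus strand): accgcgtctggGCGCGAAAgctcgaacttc
Rfc3 (chr5:151651200-151651229, minus strand): acgtcgcacgcTTTCGCGCtcgcgggaaaa
Lig1 (chr7:13278841-13278870, plus strand): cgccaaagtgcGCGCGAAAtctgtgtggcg
Pola1 (chrX:93632275-93632304, minus strand): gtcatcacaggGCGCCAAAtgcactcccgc
Uhrf1 (chr17:56304117-56304146, plus strand): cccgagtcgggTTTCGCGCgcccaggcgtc

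Mcm6, whose level was the steadiest among the helicase genes below, and Rfc1, which had the largest genotype difference in either direction, are shown over the 250 bases before their starts. The Mcm6 stretch holds 3 E2F matches, of which the first pair overlap, and the Rfc1 window holds none.
Mcm6 (chr1:128359706-128359955, minus strand): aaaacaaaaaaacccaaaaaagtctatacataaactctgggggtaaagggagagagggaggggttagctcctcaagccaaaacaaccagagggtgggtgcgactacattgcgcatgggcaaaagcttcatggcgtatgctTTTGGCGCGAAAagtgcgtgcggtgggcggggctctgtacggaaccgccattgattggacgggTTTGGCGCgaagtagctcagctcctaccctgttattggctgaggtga
Rfc1 (chr5:65335640-65335889, minus strand): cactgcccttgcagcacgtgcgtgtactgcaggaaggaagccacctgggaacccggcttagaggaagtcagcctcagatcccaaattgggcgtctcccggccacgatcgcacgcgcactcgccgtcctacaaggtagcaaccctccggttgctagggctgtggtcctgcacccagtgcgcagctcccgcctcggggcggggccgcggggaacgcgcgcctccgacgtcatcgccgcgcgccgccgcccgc

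Some facts of the whole set of arrays bear on every value below. By its brighter probe the targeted gene read 9.67 ± 0.40 (SD) on the wild-type and 6.71 ± 0.10 (SD) on the knockout arrays, so Socs2 was at least 4.51-fold lower there (limma adjusted p = 0.036). With 1 array left out that p was 0.025 without wild-type array 3 and between 0.056 and 0.168 without any other. Knockout arrays 1 and 2 had fewer bright probes, with 32.7% and 36.6% of tested genes at or below 7.5, against 14.6% to 18.5% on the other arrays. Of 9 listed LSK genes, 7 were measured, with a mean of 8.98 to 10.29 on wild-type and 8.38 to 10.17 on knockout arrays. Their differences ran from -1.40 for Slamf1 to 0.82 for Cd34. Kit, also among them, read 7.94 to 10.96 in wild type and 6.84 to 11.23 in the knockout. Ly6a, encoding Sca-1, had no named probe. Of the markers of B cells, Ms4a1 and Pax5 had a probe and neither reached the filter. Lyz1 and Siglech, of myeloid and dendritic cells, lay above 7.5 on all 9 arrays, as did Lyz2, Prtn3 and Bst2. The myeloid markers Csf1r, Mpo, Camp and S100a9 did not, and Itgam, Ccr2, Elane, Ngp, S100a8 and Ltf were below the filter. The mean of 4 measured erythroid markers of 8 listed was 9.22 to 9.89 on wild-type and 10.18 to 11.48 on knockout arrays, with Klf1 and Epor below the filter. Among the 4, Hba-a1 differed by 3.37 and Tfrc by -0.12. The mean of 3 measured monocyte markers was 9.30 to 11.24 and 10.40 to 11.54, with a difference of 1.46 for Csf1r, -0.21 for Lyz1 and -0.10 for Lyz2. That of 4 granulocyte markers was 8.15 to 9.87 and 7.48 to 9.15, and that of 2 mast cell markers 8.36 to 9.74 and 6.71 to 9.36. For 4 T and NK cell markers it was 8.43 to 9.32 and 7.43 to 9.07. Differences ran from -1.58 (Mpo) to 0.34 (Prtn3) in granulocyte and from -0.81 (Nkg7) to 0.27 (Cd3e) in T and NK cell markers. The mast cell genes Mcpt8 and Cpa3 had -2.08 and -0.39. No marker passed the adjusted threshold (limma), and 2, Hba-a1 and Csf1r, had an unadjusted p under 0.05. The part of these marker levels in the replication genes was not tested. In a sorted bulk sample, fewer cells in S phase and less transcript per cell cannot be told apart.

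Of the 39 replication genes, 0 passed the threshold of an adjusted p of 0.05 over all 8543 genes (limma with Benjamini-Hochberg adjustment), where 0.0117% of all genes, Socs2 alone, did. Their adjusted p ran from 0.415 to 0.993. At an unadjusted p of 0.05, 1 gene was higher in the knockout (Mcm10), against 2.29% of all genes, and 1 was lower (Rfc1), against 7.87%. The genotypes were fully apart in 0 of the 39, against 3.7% of all genes, 0.983% with the knockout higher and 2.72% with it lower. The median log2 difference, knockout minus wild type, was -0.15 over the 39 genes and -0.18 over all genes tested. Of the 39, 23 had a difference below 0, or 59%, against 59.5% of all genes. The share of replication genes below 0 was thus near the background. Without wild-type array 3 the count of all genes passing was 7, none of them a replication gene.

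**Figure D1:**
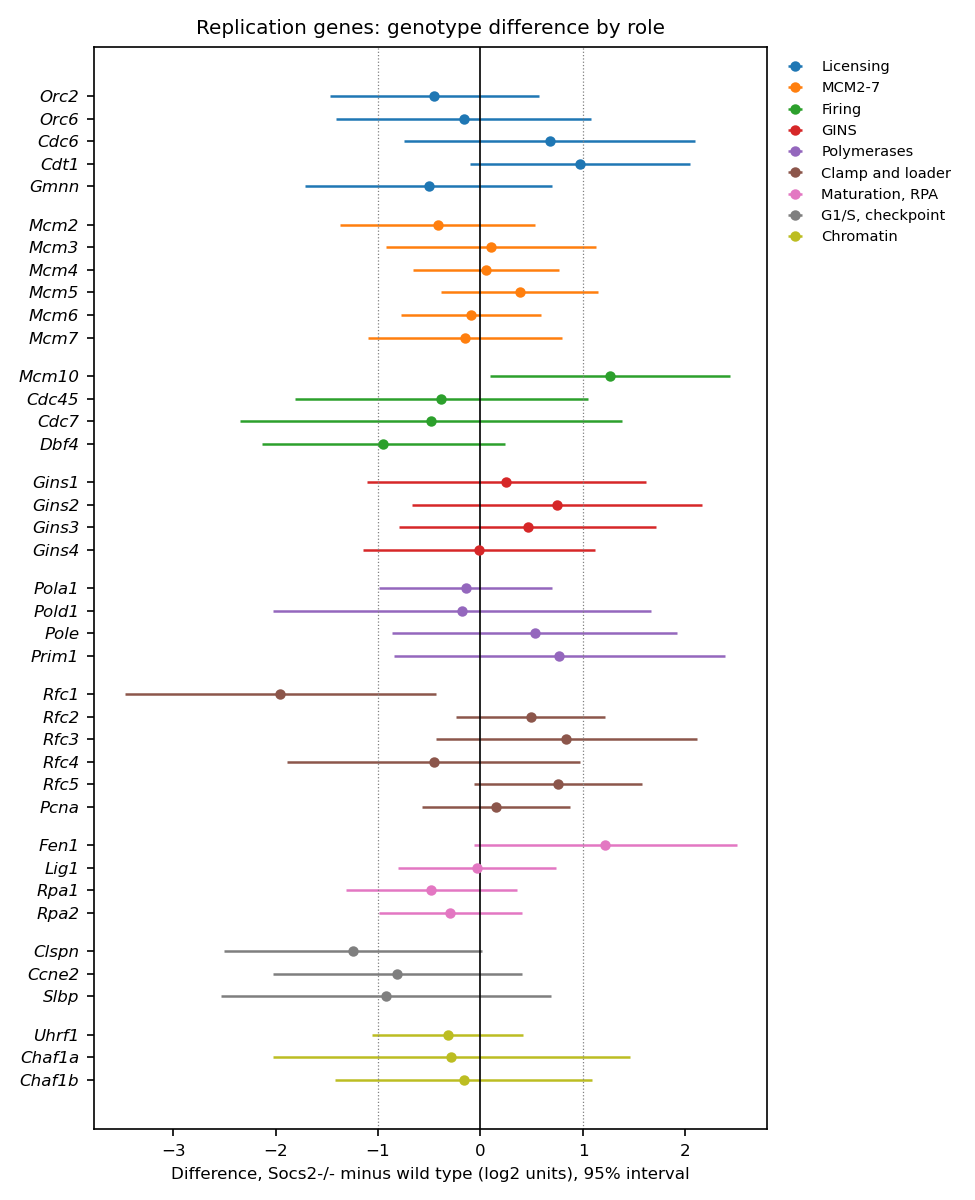
Difference in deposited log2 value between Socs2-/- (n = 4) and wild-type (n = 5) arrays for 39 replication genes, grouped by role; bars are 95% intervals from the limma fit and dotted lines mark -1 and 1. The interval crosses 0 for every gene except Mcm10 and Rfc1, neither of which passed the adjusted threshold.

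Licensing genes came first in the order of events, and 5 of 6 were measured. The origin recognition subunits Orc2 and Orc6 had differences of -0.45 and -0.16, with 95% intervals from -1.47 to 0.57 and from -1.41 to 1.08. The lowest Orc6 value was 6.96 on knockout array 2, while the other knockout arrays read 9.13 to 9.35 and wild type 8.07 to 9.53. The median of the pair was -0.31, and 0.16 without knockout array 2. Cdc6, the ATPase that helps load the helicase, read 8.88, 9.75, 10.72, 9.07 and 8.30 in wild type and 10.02, 11.50, 8.63 and 9.93 in the knockout.

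Cdt1, which brings the MCM complex to the origin, read 8.97, 9.39, 7.90, 10.20 and 8.89 on wild-type arrays and 9.65, 10.16, 10.63 and 9.71 on knockout arrays. All 4 knockout values lay above 4 of the 5 wild-type values, and wild-type array 4 overlapped them. Its difference was 0.97 (SE 0.48, limma adjusted p = 0.518), with an interval from -0.10 to 2.04, and it stayed between 0.68 and 1.25 with any 1 array left out. Gmnn encodes geminin, the protein that binds Cdt1 and blocks a new round of licensing. It read 8.92, 9.68, 9.81, 9.76 and 8.84 in wild type and 9.52, 7.29, 8.86 and 9.92 in the knockout, a difference of -0.51 (SE 0.55). That value rested on knockout array 2, without which it was 0.03. Across the 9 arrays, deviations of Cdt1 and Gmnn from their group means had a correlation of -0.15.

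The 6 subunits of the MCM2-7 ring, the motor of the replicative helicase, were above 7.5 on all 9 arrays. Mcm6 read 12.74, 12.93, 12.92, 12.47 and 12.81 in wild type and 12.68, 12.56, 12.70 and 12.76 in the knockout. Mcm4 read 11.94, 12.49, 11.90, 12.30 and 12.34 in wild type and 12.07, 12.31, 12.17 and 12.45 in the knockout. Mcm5 read 12.02, 12.43, 11.42, 12.25 and 12.08 in wild type and 12.35, 12.73, 12.41 and 12.19 in the knockout. In these 3 genes the knockout values lay among or next to the wild-type values, with SDs from 0.09 to 0.38. The differences were -0.10 for Mcm6 (SE 0.31), 0.06 for Mcm4 (SE 0.32) and 0.38 for Mcm5 (SE 0.35). The intervals ran from -0.78 to 0.59 for Mcm6 and from -0.66 to 0.77 for Mcm4, so by these probes a difference of 1 log2 unit either way lay outside both. The other 2 probes of Mcm4 had -1.35 and -1.36 (limma adjusted p = 0.463 and 0.451), and those of Mcm6 ran from -0.83 to 0.62.

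Mcm2 read 11.79, 11.18, 11.59, 11.39 and 10.90 in wild type and 11.75, 9.97, 11.34 and 10.75 in the knockout. Mcm3 read 10.18, 10.69, 10.69, 9.72 and 11.12 in wild type and 9.50, 11.34, 10.75 and 10.77 in the knockout. Mcm7 read 10.80, 10.98, 9.84, 10.93 and 10.81 in wild type and 10.74, 9.68, 11.25 and 10.42 in the knockout. These 3 subunits were more variable, and knockout array 2 gave the lowest value of Mcm2 and Mcm7 but the highest of Mcm3. Their differences were -0.42, 0.11 and -0.15. Over the 6 subunits, 3 differences were above 0 and 3 below, with a median of -0.02. Centring each array moved that median to 0.096 and quantile normalization to 0.00476. The median residual SD of the 6 was 0.44, against 0.92 over all genes tested. Correlations between subunits over the 9 arrays, as deviations from group means, had a median of 0.06 over 15 pairs, near the 0.018 of all gene pairs.

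**Figure D2:**
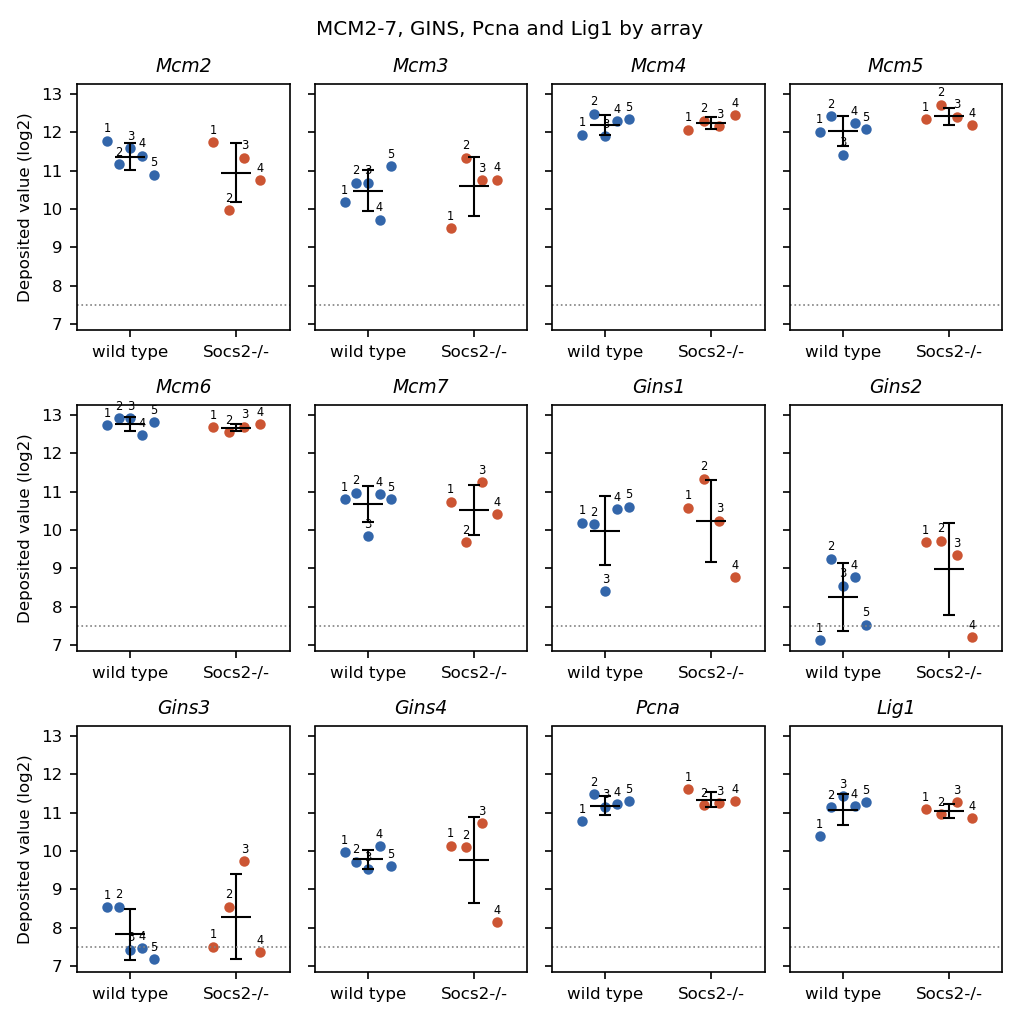
Deposited log2 values of the 6 MCM2-7 subunits, the 4 GINS subunits, Pcna and Lig1 on each array; small digits are array numbers, black bars are means ± SD and the dotted line marks 7.5. Mcm4, Mcm6 and Pcna have SDs of at most 0.26 in both genotypes, Lig1 has 1 low wild-type array at 10.38, and Gins1, Gins2 and Gins4 have a low value on knockout array 4.

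The GINS complex, which joins the ring to Cdc45, was measured through all 4 of its subunits. Gins1 read 10.19, 10.15, 8.40, 10.55 and 10.61 in wild type and 10.58, 11.34, 10.24 and 8.77 in the knockout. Gins2 read 7.12, 9.25, 8.55, 8.77 and 7.53 in wild type and 9.69, 9.72, 9.35 and 7.20 in the knockout. In both genes 3 knockout arrays were in the upper part of the range and knockout array 4 was low. Gins3 read 8.54, 8.55, 7.42, 7.46 and 7.17 in wild type and 7.5, 8.55, 9.74 and 7.35 in the knockout. Gins4 read 9.97, 9.72, 9.52, 10.12 and 9.60 in wild type and 10.14, 10.10, 10.72 and 8.14 in the knockout. The differences were 0.25, 0.74, 0.46 and -0.01, with a median of 0.36 (adjusted p from 0.683 to 0.993). The other probes of Gins2 had -0.15 and 0.25. With values above 7.5 required on all 9 arrays the median was -0.01, over 3 subunits, with Gins2 read by its probe of -0.15. Leaving out knockout array 4 gave a median of 0.76, and leaving out both knockout arrays 1 and 2 gave -0.16. All 6 pairs of GINS subunits were positively correlated over the 9 arrays, from 0.28 to 0.67 with a median of 0.52. Without knockout array 4 the median correlation was -0.06, so it rested on that array.

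Factors that turn the loaded helicase on were spread widely between arrays. Mcm10, which binds the activated helicase, read 7.09, 9.45, 9.15, 7.99 and 7.89 in wild type and 9.59, 10.01, 8.87 and 9.84 in the knockout. Here 3 of the 4 knockout values were above every wild-type value. The difference was 1.26 (SE 0.53, limma adjusted p = 0.473), with an interval from 0.09 to 2.44. Another Mcm10 probe had -1.13, and the mean of all 4 Mcm10 probes had 0.28. Cdc45, a part of the active helicase, read 8.34, 9.32, 9.01, 7.69 and 8.89 in wild type and 7.16, 6.94, 9.32 and 9.65 in the knockout. Its difference of -0.38 became 0.84 without knockout arrays 1 and 2, the arrays where it was at background.

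The kinase Cdc7 and its activating subunit Dbf4 were the other firing genes. Cdc7 read 9.62, 11.09, 9.79, 8.42 and 11.01 in wild type and 10.26, 6.81, 10.34 and 10.61 in the knockout. Its difference was -0.48, and 0.42 without knockout array 2. Dbf4 read 9.19, 8.70, 8.20, 8.05 and 7.56 in wild type and 6.84, 6.71, 8.89 and 7.13 in the knockout. Thus 3 knockout arrays read at or below 7.5 and knockout array 3 lay within the wild-type range. The difference was -0.95 (SE 0.54, limma adjusted p = 0.563), and -0.33 without knockout arrays 1 and 2. The knockout mean of 7.39 was at background, so the size is uncertain.

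Polymerase genes were measured through 1 probe each. Pole, the catalytic subunit of the leading-strand polymerase, read 9.43, 7.68, 10.59, 7.46 and 9.11 in wild type and 9.93, 9.05, 9.36 and 9.19 in the knockout. Pold1, the catalytic subunit of polymerase delta, read 9.44 to 10.66 in wild type and 6.90, 11.80, 10.69 and 9.88 in the knockout. The lowest and the highest of the 9 Pold1 values were thus both knockout values. Prim1, the primase subunit that makes the RNA primer, had a difference of 0.77 (SE 0.73), and Pole had 0.53 (SE 0.63). Pold1 and Pola1, of the priming polymerase alpha, had -0.18 and -0.15, and Pola1 had group means of 7.45 and 7.30, near background. The 4 genes had a median of 0.19, which remained between 0.00489 and 0.57 with any 1 array left out.

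Pcna, the sliding clamp that holds polymerases on DNA, read 10.78, 11.48, 11.16, 11.22 and 11.30 in wild type and 11.62, 11.19, 11.25 and 11.30 in the knockout. The genotypes overlapped almost fully. The difference was 0.15 (SE 0.32), with an interval from -0.57 to 0.87, and it stayed between 0.05 and 0.23 with any 1 array left out.

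The 5 subunits of replication factor C, which opens Pcna and loads it on DNA, did not move one way. Rfc1, the large subunit encoded on chromosome 5, read 10.75, 11.81, 8.89, 11.63 and 11.08 in wild type and 10.07, 7.5, 9.29 and 8.65 in the knockout. Wild-type array 3 lay among the knockout values and the other wild-type arrays were above all 4. The difference was -1.96 (SE 0.69, limma adjusted p = 0.415), with an interval from -3.47 to -0.44. Leaving out wild-type array 3 gave -2.44 and leaving out knockout array 2 gave -1.50, the ends of the range for single arrays. With knockout arrays 1 and 2 both left out it was -1.87. Rfc1 had 1 probe, so no second measurement of it was possible.

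The smaller subunits Rfc2, Rfc3 and Rfc5 had differences above 0, and Rfc4 had one below. Rfc2 read 11.57, 11.90, 12.04, 11.61 and 11.44 in wild type and 12.31, 12.50, 11.93 and 12.06 in the knockout. Its difference was 0.49 (SE 0.33, limma adjusted p = 0.611), and all 4 Rfc2 probes had differences from 0.49 to 0.66. Rfc5 read 9.23, 9.19, 9.86, 9.65 and 9.68 in wild type and 9.62, 10.29, 10.33 and 10.86 in the knockout. In Rfc5 as in Rfc2, 3 of the 4 knockout values lay above every wild-type value. The Rfc5 difference was 0.75 (SE 0.37, limma adjusted p = 0.514), with an interval from -0.06 to 1.57. Rfc3 had 0.84 (SE 0.58), from a wild-type mean of 7.56 that lay near background. Rfc4 had -0.46, and 0.08 without knockout array 2. Over the 5 subunits the median was 0.49 and the mean -0.07, which differ in sign. The median was 0.017 with either stricter filter (above 7.5 on all 9 arrays, or above 8 on at least 4), which leaves out Rfc3, and 0.30 with the mean of all probes.

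**Figure D3:**
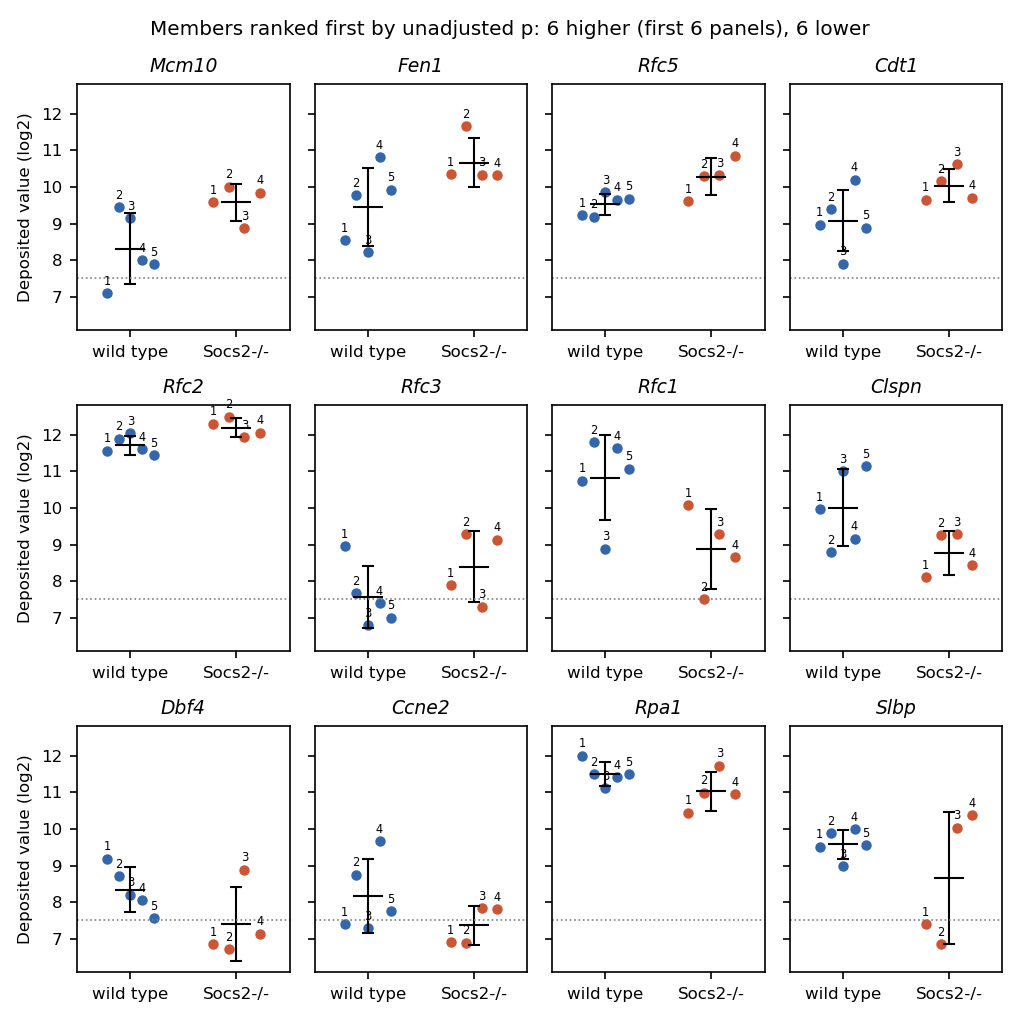
Deposited log2 values by array of the 12 replication genes with the smallest unadjusted p, 6 per direction; digits are array numbers, black bars are means ± SD and the dotted line marks 7.5. In each gene at least 1 array of one genotype lies within the range of the other. Slbp, Dbf4 and Ccne2 are at background on knockout arrays 1 and 2.

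Genes that finish the lagging strand or cover single-stranded DNA were measured through 4 genes, with differences from -0.48 to 1.22. Fen1, the nuclease that trims the flap before ligation, read 8.55, 9.77, 8.21, 10.81 and 9.93 in wild type and 10.35, 11.66, 10.34 and 10.32 in the knockout. All 4 knockout values lay above 4 of the 5 wild-type values. The difference was 1.22 (SE 0.58, limma adjusted p = 0.51), with an interval from -0.07 to 2.50, and it stayed between 0.89 and 1.56 with any 1 array left out. Lig1, the ligase that seals the fragments, read 10.38, 11.14, 11.44, 11.17 and 11.28 in wild type and 11.10, 10.96, 11.27 and 10.86 in the knockout. Its difference was -0.04 (SE 0.35), with an interval from -0.81 to 0.74. Its other 3 probes had differences from -1.12 to 0.14. Rpa1 and Rpa2, subunits of the single-strand binding complex, had differences of -0.48 and -0.29. The interval of Rpa2 ran from -0.99 to 0.40, and its other 2 probes had 0.03 and 0.54.

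Clspn, encoding claspin, the adaptor through which a stalled fork activates the checkpoint kinase Chk1, read 9.97, 8.79, 11.00, 9.16 and 11.14 in wild type. On knockout arrays it read 8.10, 9.26, 9.29 and 8.44. The knockout values lay in the lower part of the wild-type range or below it. The difference was -1.24 (SE 0.57, limma adjusted p = 0.497), with an interval from -2.50 to 0.02, and the other 3 probes had -0.79 to -1.32. It was -1.15 without knockout arrays 1 and 2. Probes of 1 gene share the arrays and are not replicates.

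Ccne2, encoding cyclin E2, which drives entry into S phase with Cdk2, read 7.39, 8.75, 7.29, 9.67 and 7.75 in wild type and 6.91, 6.89, 7.83 and 7.80 in the knockout. Its difference was -0.81 (SE 0.55), with a knockout mean of 7.36 at background. Slbp, which binds the stem-loop of histone mRNA, read 9.52, 9.88, 8.98, 10.00 and 9.55 in wild type and 7.39, 6.85, 10.04 and 10.37 in the knockout. Here knockout arrays 1 and 2 were at background and arrays 3 and 4 above every wild-type array. The difference was -0.92 (SE 0.73) with all arrays and 0.62 without knockout arrays 1 and 2.

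Chromatin factors of the fork had differences from -0.32 to -0.16. Uhrf1, which brings the maintenance methyltransferase to newly copied DNA, read 12.17, 12.53, 11.88, 12.21 and 12.35 in wild type and 11.74, 12.04, 12.27 and 11.57 in the knockout, a difference of -0.32 (SE 0.33). Chaf1a and Chaf1b, subunits of the assembly factor that places histones behind the fork, had -0.28 and -0.16. Both were lowest on knockout array 1, at 7.18 and 9.11, and had 0.44 and 0.39 without it.

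The 95% interval lay within 1 log2 unit of 0 for 6 of the 39 genes (15.4%), against 6.34% of all genes tested. These were Mcm4, Mcm6, Pola1, Pcna, Lig1 and Rpa2, of which Pola1 was near background. The bound holds for the brightest probe of each gene in the fit of genes. In the fit of single probes, 2 of these brightest probes had intervals just past 1 log2 unit. They ran from -1.03 to 0.74 for Pola1 and from -1.04 to 0.46 for Rpa2. In that fit every other probe of Mcm4, Mcm6 and Rpa2, and all but 1 of the others of Lig1, also had an interval past 1 log2 unit. Those reaching farthest from 0 ran from -2.63 to -0.08 for Mcm4 and from -1.94 to 0.28 for Mcm6. They ran from -2.48 to 0.24 for Lig1 and from -1.14 to 2.22 for Rpa2. For the other 33, these arrays could not bound the difference within that size. A residual SD under 0.5 was found in 28.2% of the replication genes and 16.1% of all genes. The share of genes above 7.5 on all 9 arrays was 56.4% and 33.6%.

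Knockout arrays 1 and 2 set much of the spread. They gave the lowest of 9 values in 21 of the 39 genes, 9 on array 1 and 12 on array 2. They gave the highest in 12, of which 11 were on array 2 and 1 on array 1. These shares were not computed over all genes tested, so they are not shown to be particular to the replication genes. On knockout array 2, 9 of the 39 genes were at or below 7.5, and on knockout array 1, 8 were, against 1 to 5 on the other arrays. As a share this was 23.1% and 20.5%, below the 36.6% and 32.7% of all genes on the same arrays. Genes above 7.5 on all 5 wild-type arrays and at background on knockout array 2 were Orc2, Orc6, Gmnn, Cdc45, Cdc7, Dbf4 and Slbp, or 17.9% of the 39 against 15.3% of all genes. On knockout array 1 they were Cdc45, Dbf4, Pold1, Slbp and Chaf1a, or 12.8% against 12.2%. Without both arrays 24 of the 39 differences were above 0 in place of 16, and the median was 0.26, against -0.03 over all genes. The share of all genes above 0 in that fit was not computed. No replication gene passed the adjusted threshold there either (lowest limma adjusted p = 0.597). At an unadjusted p of 0.05, 1 of the 39 was higher and 1 lower, where 547 of all 8543 genes reached that p in either direction.

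**Figure D4:**
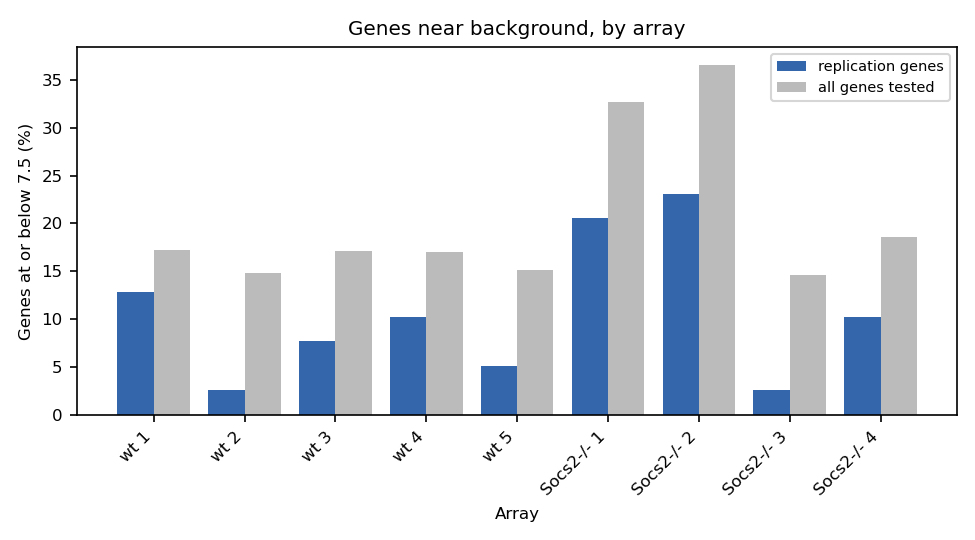
Share of the 39 replication genes and of all 8543 genes tested that lay at or below 7.5 on each array, in percent. Knockout arrays 1 and 2 have the highest shares in both sets, 20.5% and 23.1% of replication genes and 32.7% and 36.6% of all genes.

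Probes of the same gene often disagreed. Of the 39 genes, 14 had more than 1 probe past the filter, and in 7 of them (50%) the probes had differences of opposite sign, against 44.4% of 3191 genes with several probes. The 7 were Mcm4, Mcm6, Mcm10, Gins2, Lig1, Rpa2 and Uhrf1. Mcm4 had 0.06 by its brightest probe and -1.35 and -1.36 by the other 2, which were correlated at 0.998 over the arrays and so were close to 1 measurement. On those 2 probes knockout array 1 read 6.90 and 6.87. Mcm7 had -0.15 and -1.33, and Uhrf1 had -0.32 and 1.19. No probe of a replication gene passed an adjusted p of 0.05 when all 13333 named probes past the filter were tested one by one; among all of them 0% did. At an unadjusted p of 0.05, 4 of the 66 probes of replication genes did, 1 higher (Mcm10) and 3 lower (Rfc1 and the 2 dimmer Mcm4 probes). The share over all probes at that p was not computed. In the fit of genes, where 1 probe stands for each gene, it was 10.2% of all genes, 2.29% higher and 7.87% lower. That fit is a different one, so the 4 probes cannot be read as particular to the replication genes. Clspn and Rfc2 each had 4 probes that agreed in sign.

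**Figure D5:**
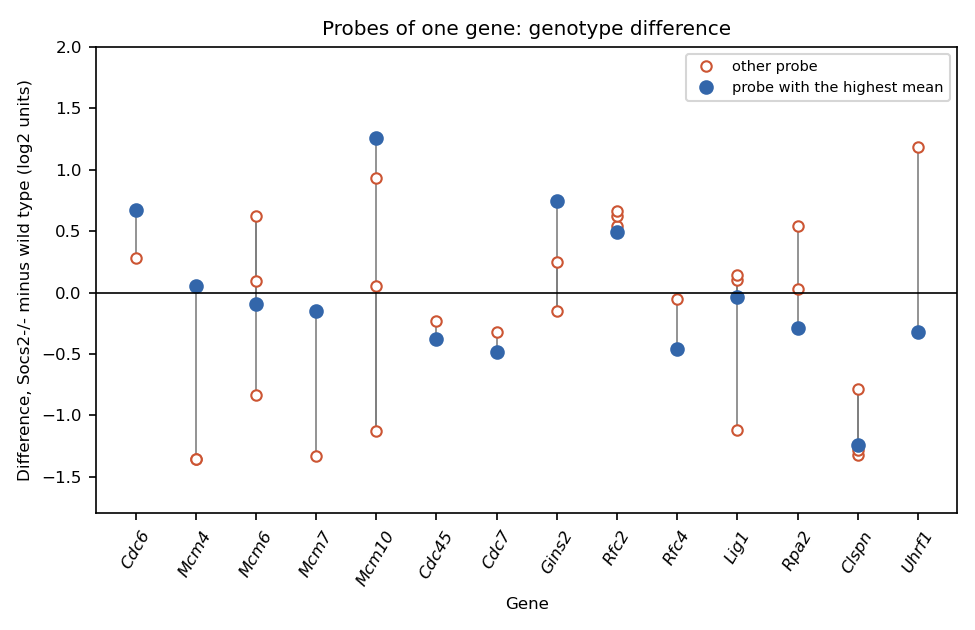
Difference in log2 value, Socs2-/- minus wild type, of every probe past the filter for the 14 replication genes with more than 1; filled points are the brightest probe, which stands for the gene, and open points the others. The probes of Mcm4, Mcm6, Mcm7, Mcm10, Lig1 and Uhrf1 spread over more than 1 log2 unit. Those of Cdc6, Mcm7, Cdc45, Cdc7, Rfc2, Rfc4 and Clspn lie on one side of 0.

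Other genes of the pathway were read from a list of 60, of which 52 were tested. They include further subunits of the origin recognition complex, polymerases, nucleotide supply enzymes and checkpoint factors. Of the 52, 0 passed the adjusted threshold, and at an unadjusted p of 0.05 0 were higher and 1 was lower, or 1.92% in either direction against 10.2% of all genes. That gene was Ccna2, encoding cyclin A2, the partner of Cdk2 in S phase. It read 9.67, 10.42, 11.38, 10.94 and 11.33 in wild type and 7.31, 6.85, 9.81 and 11.34 in the knockout, with knockout arrays 1 and 2 at background. Its difference was -1.92 (SE 0.87, limma adjusted p = 0.49). The median of the 52 was -0.22, with 19 above 0 and 33 below.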

How the data were processed

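Gene expression was measured on Illumina bead arrays in 9 samples. The authors deposited log2 values: per the submitters' processing notes lumi was used, but no source used here gives its version, background correction, transformation or normalization. If the transformation stabilised variance, differences of dim genes are understated. A table of non-normalized values, with 18 columns whose chip positions match no label, was not used.

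Of 45281 probes, 34885 had 1 gene symbol, 18 several and 10378 none. The probe with the highest mean over 9 arrays, past the filter of 7.5 on at least 4 arrays, stood for its gene. Genotypes were compared with limma 3.58.1 in R 4.3.3 (lmFit and eBayes, two-sided, no covariate, Benjamini-Hochberg over 8543 genes). Intervals are 95% intervals from that fit. Alternatives kept these genes and probes unless they concerned the filter or the probe. The procedure was tested on simulated data. The number of arrays limits the precision.

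The genes, lists and filter were chosen with earlier results of these data known. Every gene was to be accounted for, with values by array for the helicase, GINS and Pcna and for the 6 genes per direction with the smallest p; values for others were added. Same-numbered arrays were not paired by any label, and their deviations had correlations from -0.07 to 0.04.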

Additional observations from a re-analysis of the deposited data

Results flagged for a closer look

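In 9 of 78 groups of arrays (39 genes, each in 2 genotypes) the lowest or highest array stood far from the others by Dixon's test at the 95% level. Chance flags about 1 group in 20. The share of flagged groups over all genes tested was not computed, so the count cannot be read as particular to the replication genes. Knockout array 2 was low for Orc6 at 6.96 (nearest other knockout array 9.13) and for Cdc7 at 6.81 (10.26), and high for Fen1 at 11.66 (10.35). Knockout array 1 was low for Chaf1a at 7.18 (9.88) and for Chaf1b at 9.11 (11.24). Knockout array 4 was low for Gins2 at 7.20 (9.35). Wild-type array 3 was low for Mcm7 at 9.84 (10.80) and for Gins1 at 8.40 (10.15), and wild-type array 1 was low for Lig1 at 10.38 (11.14).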

How the results depend on the processing

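No replication gene, and none of the other 52 pathway genes, passed the adjusted threshold under any alternative run. The count of all genes passing, 1 in the report, was 2 when no filter was set and 3 with values above 7.5 on all 9 arrays. It was 0 with each array centred on its median, values below 7.5 set to 7.5, the mean of all probes, the replicate block, an intensity trend, or without knockout arrays 1 and 2, and 0 to 7 with single arrays left out (7 without wild-type array 3). The median difference of the 39 genes was 0.028 with array weights and 0.26 without knockout arrays 1 and 2; leaving out single arrays gave from -0.33 (knockout array 3) to 0.028 (knockout array 2). The MCM2-7 median was 0.096 with centring, -0.24 with the mean of all probes and 0.14 without knockout arrays 1 and 2. Centring shifts the difference of every gene by the same amount. With the mean of all probes Mcm4 had -0.89, Mcm7 -0.74 and Mcm6 -0.05, in place of 0.06, -0.15 and -0.10. The cause of the shift without knockout arrays 1 and 2 was not tested. With the replicate block, over the 8 arrays whose numbers both genotypes have, the median of the 39 genes was -0.03 and 629 of all genes, with 0 replication genes, had an unadjusted p under 0.05. The numbers share no more than a label, and 2 of 4 knockout arrays correlated best with their own number. Of the 39 differences, 17 kept their sign under every alternative run, 12 changed sign without knockout arrays 1 and 2, and 3 with centring. Centring moved the median of all genes from -0.18 to -0.06. The Socs2 difference was -3.04 to -1.70 under every alternative that kept it, but its adjusted p was above 0.05 with centring, values set to 7.5, the mean of all probes, the replicate block, the trend and without knockout arrays 1 and 2.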
